A study of Mus musculus with 6 samples.

Results

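The complement genes described here are 31 mouse genes for complement components, regulators and receptors, chosen by name. Each was followed through every probe set, a group of short probes that together give 1 signal, that the platform annotation names with exactly 1 of these symbols. Of the 31 genes, 28 had such a probe set, 43 probe sets together, among the 12393 genes and 20380 probe sets of the array with 1 symbol. C3, C4b and Cfd were not analysed here. Of the 28 genes, 26 had a probe set that passed the filter on dim signals (mean over all 6 arrays above 98.8), and Cd55 and Cd46 did not. Among the 26, C5ar1 was the one with a group mean under that level (77.6 in GFP livers), so it passed through its higher signal in BPD livers. Where a gene had several probe sets above the filter, the brightest stands for it, and the others are given where they differ.

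The signals come from livers of 6 male KK/H1J mice, an obese, diabetic inbred strain, aged 12 to 14 weeks by their age label (1 free-text description, that of BPD mouse 28, gives a different lower age) and about 35 g. Every mouse had received an adenovirus through the tail vein, at the same stated dose. In 3 mice (numbers 23, 28 and 36) it carried a bisphosphatase-deficient form (BPD) of the bifunctional enzyme that makes and breaks down fructose-2,6-bisphosphate, an activator of glycolysis, and in 3 control mice (22, 29 and 31) it carried green fluorescent protein (GFP). The livers, taken 7 days later from mice with free access to food, were measured on 1 array per mouse. The study asked how the hepatic transcriptome of these mice responds to the enzyme form. Neither the promoter of the transgenes nor the cells that took up the virus is named in the labels.

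Complement is a set of plasma proteins that mark, lyse or help to clear microbes and damaged cells. The classical pathway starts when C1q binds antibody or altered surfaces, the lectin pathway when mannose-binding lectins or ficolins bind sugars and their associated serine proteases cleave the next components, and the alternative pathway amplifies both. All converge on C3 and C5, and end with C6 to C9, which form the pore known as the membrane attack complex. Hepatocytes make most of these plasma proteins. C1q, properdin and, in mice, ficolin A come mainly from macrophages and other myeloid cells, which also carry the receptors for the cleaved fragments C3a and C5a.

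The windows around the start sites of 4 genes are shown, because C8a and C8b, neighbours on chromosome 4, fell far and C1qb and C1qc, neighbours elsewhere on the same chromosome, rose. The RefSeq table (build GRCm38.p6) gives 250 bases before and 50 after each start site, and held 23 of the 31 genes. Capitals mark matches to the letter strings given after the sequences, and a window with no match to them is in lower case throughout. C8a lies at chr4:104876349-104876648, minus strand, and C8b at chr4:104766067-104766366, plus strand. The C1qb window is chr4:136886151-136886450, minus strand, and the C1qc window chr4:136892865-136893164, minus strand.
C8a: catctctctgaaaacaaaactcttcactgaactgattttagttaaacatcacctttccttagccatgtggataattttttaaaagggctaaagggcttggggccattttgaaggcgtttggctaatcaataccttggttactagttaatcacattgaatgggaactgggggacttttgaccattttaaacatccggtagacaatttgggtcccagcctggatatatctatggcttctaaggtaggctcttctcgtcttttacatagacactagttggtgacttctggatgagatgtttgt
C8b: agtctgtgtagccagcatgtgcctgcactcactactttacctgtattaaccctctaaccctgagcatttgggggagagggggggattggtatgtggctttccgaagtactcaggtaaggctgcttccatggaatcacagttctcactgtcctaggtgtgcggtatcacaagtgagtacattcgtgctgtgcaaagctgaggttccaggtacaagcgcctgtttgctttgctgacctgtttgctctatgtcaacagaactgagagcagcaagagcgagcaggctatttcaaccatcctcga
C1qb: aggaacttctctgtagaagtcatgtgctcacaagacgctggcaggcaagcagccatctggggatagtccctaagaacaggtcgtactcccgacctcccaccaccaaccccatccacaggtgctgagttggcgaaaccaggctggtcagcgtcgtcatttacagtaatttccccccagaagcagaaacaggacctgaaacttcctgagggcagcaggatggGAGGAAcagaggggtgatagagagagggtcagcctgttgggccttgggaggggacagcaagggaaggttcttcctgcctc
C1qc: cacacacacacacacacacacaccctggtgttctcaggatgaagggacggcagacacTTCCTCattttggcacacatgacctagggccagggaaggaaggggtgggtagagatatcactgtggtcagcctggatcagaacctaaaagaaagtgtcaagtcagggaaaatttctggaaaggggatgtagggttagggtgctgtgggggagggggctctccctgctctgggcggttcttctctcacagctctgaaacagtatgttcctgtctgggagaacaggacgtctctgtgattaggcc

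Letter strings of 4 factors, searched on both strands, are reported here, and a match is not by itself a bound site. The core GAGGAA of PU.1, a factor of myeloid cells, was in the windows of 4 of 6 myeloid-made genes (C1qb, C1qc, Cfp and Fcna) and 0 of 12 hepatocyte-made genes, against 28.3% of all 32851 windows. In C1qb it starts 30 bases before the start site, and in C1qc its reverse complement starts 193 bases before. The C/EBP string TTGCNNAA was in C3 and C9 (10.8% of all windows). The string CAAAGTCC of HNF4 was in 0 of the 23 windows (1.42% of all), and that of NF-kB in C3ar1 alone of them (1.63%). Outside these classes the PU.1 string was in Cd59a. The windows of C8a and C8b hold none of these 4 strings, which says nothing of other strings. Those of C1qb and C1qc hold 1 match each, so no matches overlap in the sequences shown.

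After centring each array on its median, most hepatocyte-made complement genes were lower and most myeloid-made ones higher in the BPD livers. Of 17 measured hepatocyte-made genes 15 fell and 2 (Mbl2 and Clu) did not pass the test, while 11 fell in the deposited scaling, and 9 fell and 1 (Mbl2) rose with quantile normalization. Of 7 myeloid-made genes 4 rose (C1qa, C1qb, C1qc and C3ar1) and 3 did not pass (Cfp, Fcna and C5ar1). Cd59a, a cell-surface inhibitor of the pore, and C1qbp, a mostly mitochondrial protein named for binding C1q, fell. Together 4 of 26 genes rose (15.4%), beside 8.75% of all 8151 genes tested, and 17 fell (65.4%), beside 22.1% (limma, adjusted p under 0.05). All BPD mice lay above all GFP mice in 4 of the 26 (13.3% of all genes) and below them in 17 (36.4%). The 4 were C1qa, C1qb, C3ar1 and C5ar1. Of these, C5ar1 passed the filter only through its BPD livers, so it adds no support to this count. The median log2 difference of the hepatocyte-made genes was -0.96 and that of the myeloid-made genes 1.37, beside -0.22 for all genes. In a whole liver piece, fewer cells of a type and less RNA per cell cannot be told apart.

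How many genes counted as lower depended on the scaling between arrays. The deposited signals share a trimmed mean near 500, but the array medians were 174 to 197 in BPD and 135 to 157 in GFP livers, and the values used here were centred on these medians. The ratio of 3' to 5' signal of Gapdh, a sign of RNA integrity, averaged 0.781 ± 0.071 over the BPD and 0.827 ± 0.063 over the GFP arrays (SD, n = 3, exact permutation test, 2-sided, p = 0.5). Without centring, in the deposited scaling, 5 of the 26 rose (17.2% of all genes) and 13 fell (11.1%), and with quantile normalization 5 rose (12.7%) and 10 fell (13.0%). The median of all genes was -0.22 centred, 0.08 as deposited and -0.06 with quantile normalization. Called in 1 direction under all 3 scalings were C1qa, C1qb, C1qc and C3ar1 (rising, 8.42% of all genes) and C6, C8a, C8b, C8g, C9, C4bp, Masp1, Masp2, Mbl1 and Cd59a (falling, 9.25%). Relative to all genes, the hepatocyte-made median was -0.74 centred, -0.74 as deposited and -0.40 with quantile normalization, and the myeloid-made median 1.59, 1.59 and 1.63.

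**Figure D1:**
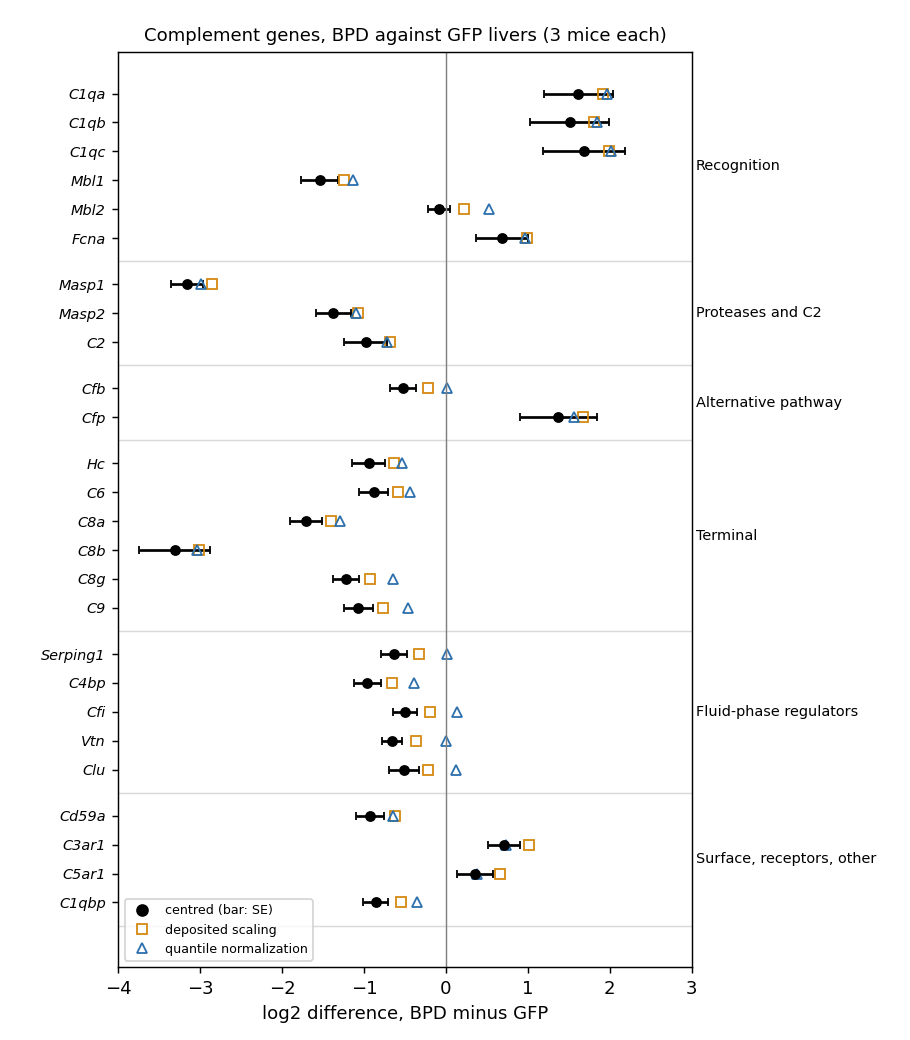
Log2 difference, BPD minus GFP, of the 26 complement genes above the filter, ordered by role (3 mice a group). Black points with bars are the centred values and their SE, open squares the deposited scaling and open triangles quantile normalization. C8b (-3.31) and Masp1 (-3.16) lie farthest to the left and the C1q chains farthest to the right (1.51 to 1.69), while Cfb, Cfi, Serping1 and Clu reach or cross 0 with quantile normalization, Vtn lies at 0 there, and Mbl2 crosses in both alternatives.

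The C1q molecule is built from 3 chains, encoded side by side by C1qa, C1qc and C1qb, and all of them rose. The signal of C1qa was 5387, 4841 and 1818 in BPD livers 23, 28 and 36, and 955, 1563 and 562 in GFP livers 22, 29 and 31. The groups did not overlap, though BPD liver 36 was close to GFP liver 29. The log2 difference was 1.62 ± 0.43 (SE, limma adjusted p = 0.021), or 3.07-fold. For C1qb the signals were 3889, 3337 and 1702 in the BPD and 1128, 1317 and 324 in the GFP livers (difference 1.51 ± 0.48, limma adjusted p = 0.043), and its other probe sets gave 1.05 and 1.34. C1qc had 4393, 4051 and 1901 in BPD and 860.2, 1737 and 340.2 in GFP livers, a difference of 1.69 ± 0.50 (limma adjusted p = 0.032). After centring, BPD liver 36 and GFP liver 29 overlapped for C1qc.

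The calls of the C1q chains depended on single mice. None of the C1q chains passed without BPD mouse 23, without BPD mouse 28 or without GFP mouse 31, and of them only C1qb passed without GFP mouse 22. The differences without 1 mouse ran from 1.26 to 2.09 for C1qa, 0.90 to 1.85 for C1qb and 1.10 to 2.19 for C1qc. In these fits without 1 mouse the direction stayed upward. The calls of C1qb and C1qc were also lost with a Gapdh 3' to 5' covariate (adjusted p = 0.11 and 0.082), without the filter (0.071 and 0.057) and with robust variance moderation (0.079 and 0.064), while that of C1qa was kept.

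Fcna and Cfp were higher in the mean without passing. Ficolin A (Fcna), a sugar-binding starter of the lectin pathway, had signals of 1814, 2044 and 999.9 in BPD and 696, 1257 and 526 in GFP livers, and the groups overlapped. Its difference was 0.69 ± 0.32 (limma adjusted p = 0.13). Properdin (Cfp), which stabilises the convertase of the alternative pathway, had 1926, 1412 and 778 in BPD and 383, 839 and 182 in GFP livers. BPD liver 36 lay below GFP liver 29, and the difference of 1.37 ± 0.47 just missed the threshold (limma adjusted p = 0.054), whereas it passed in the deposited scaling (1.68, adjusted p = 0.043). Without BPD mouse 36 or GFP mouse 29, both genes passed (Fcna 0.98 and 0.98, Cfp 1.71 and 1.86).

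Of the receptors of the fragments C3a and C5a, C3ar1 rose and C5ar1 did not pass. C3ar1 had signals of 319, 375 and 264 in BPD and 112, 199 and 147 in GFP livers, with no overlap. It rose by 0.71 ± 0.20 (limma adjusted p = 0.025), while its other probe set (0.79 ± 0.28) did not pass (adjusted p = 0.058). The call was lost without BPD mouse 23 or 28 and without GFP mouse 22 or 31, and without the filter (adjusted p = 0.052). For C5ar1 the BPD signals of 108, 156 and 134 also lay above the GFP signals of 79.2, 74.0 and 79.5, but the difference of 0.35 ± 0.22 did not pass (limma adjusted p = 0.24). The constant of 16.3 that was added before taking log2 makes differences of such dim probe sets smaller. With the same constant but without centring, the C5ar1 difference was 0.66 (limma adjusted p = 0.060). It was 0.38 with quantile normalization (limma adjusted p = 0.20), and neither passed.

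**Figure D2:**
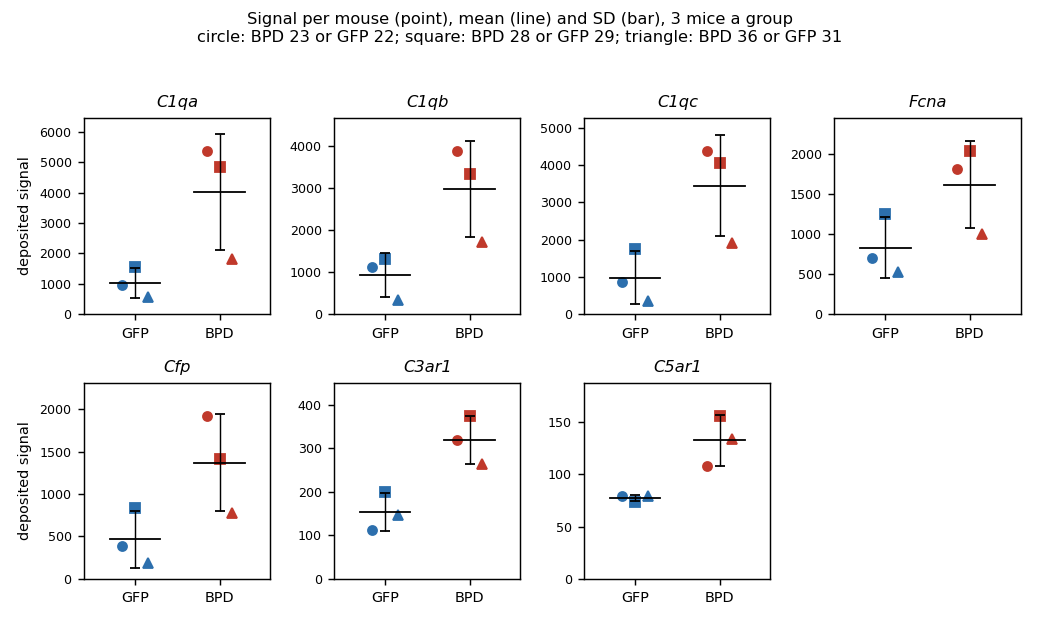
Deposited signal of the 7 myeloid-made complement genes in each liver, in GFP (blue) and BPD (red) mice, with the mean and SD of 3 mice as line and bar and 1 symbol per mouse. BPD livers 23 and 28 are high for the C1q chains, BPD liver 36 lies near GFP liver 29, and GFP liver 31 is lowest for these chains and for Cfp and Fcna.

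Markers of macrophages moved with these genes. Of 17 measured macrophage and Kupffer cell markers 11 rose (64.7%, beside 8.75% of all genes) and 6 did not pass. Their median was 1.73 above that of all genes. The summed signal of these markers was 32157 to 55029 in BPD and 10270 to 28017 in GFP livers. After centring, BPD mouse 36 was the lowest BPD mouse in 6 of 7 myeloid-made complement genes and in 16 of 17 markers. GFP mouse 31 was then the lowest GFP mouse in 5 of 7 and 15 of 17. Taken from the GFP mean and relative to all genes, the median of the myeloid-made genes was 2.19, 1.68 and 0.85 in BPD livers 23, 28 and 36, and that of the macrophage markers 1.85, 1.88 and 1.20. In GFP livers 22, 29 and 31 these medians were 0.03, 0.69 and -0.73 for the complement genes and 0.01, 0.87 and -0.87 for the markers. The part of the macrophage markers in the rise of the complement genes was not tested.

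Not all macrophage genes moved this way. Among the risers were Cd52 (2.19 ± 0.36), Lyz2 (2.42 ± 0.42), Aif1 (1.62 ± 0.30) and Cd14 (1.51 ± 0.30). Clec4f, a lectin of resident Kupffer cells that was picked after its values were seen, had signals of 748, 513 and 112 in BPD and 398, 299 and 692 in GFP livers, a difference of -0.58 ± 0.58 that did not pass (limma adjusted p = 0.47). Marco and Cd163 were under the filter, and Timd4 was not analysed here. The summed signal of 6 neutrophil markers above the filter was 1918 to 8002 in BPD and 537 to 795 in GFP livers, and their part in the rise of the complement genes was not tested either. Of these markers 4 were called higher, but S100a8, S100a9 and Ltf had GFP means of 85.6, 61.5 and 64.2, under the filter level, and were tested only through their BPD livers, so this count supports nothing. Among the other lists, 4 of 12 stellate and matrix, 2 of 3 fat cell (Adipoq, Retn and Lep were under the filter) and 1 of 3 lymphocyte markers rose. Of 10 endothelial markers 1 rose and 1 fell. Over all genes 8.75% rose and 22.1% fell. The lymphocyte marker that rose, Cd3g, and the matrix gene Col1a1 likewise passed the filter only through their BPD livers (GFP means of 64.9 and 17.6). These genes are named here after their values were seen.

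**Figure D3:**
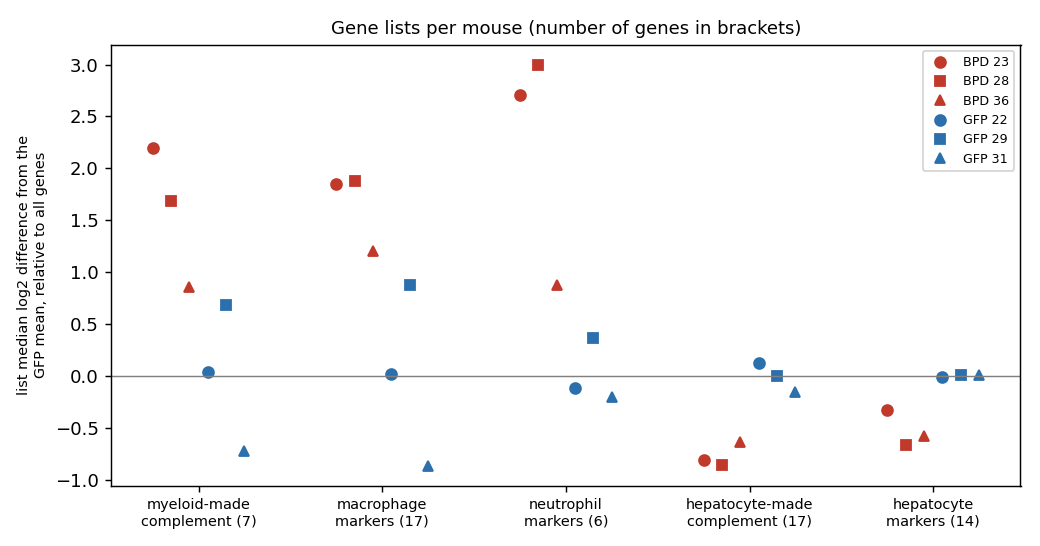
Median log2 difference from the mean of the GFP livers, relative to the same median over all genes, for 5 gene lists in each mouse (BPD red, GFP blue; vertical axis in log2 units). BPD livers 23 and 28 are highest for myeloid-made complement genes (2.19 and 1.68) and macrophage markers (1.85 and 1.88), and all BPD livers lie below all GFP livers for hepatocyte-made complement genes (-0.86 to -0.64 against -0.16 to 0.12).

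Among the sugar-binding starters of the lectin pathway, the mannose-binding lectins parted. Mbl1, made in hepatocytes, had signals of 1649.5, 1381 and 2163 in BPD and 4333, 3566 and 4286 in GFP livers, with a wide gap between the groups. It fell by 1.54 ± 0.22 on the log2 scale (limma adjusted p = 0.0016). Mbl2, its close relative, had 10085, 10562 and 11819 in BPD and 9137, 9201 and 9499.7 in GFP livers. All BPD signals of Mbl2 were thus above all GFP signals as deposited, but after centring the groups overlapped and the difference was -0.08 ± 0.14 (limma adjusted p = 0.67). It was 0.22 as deposited (adjusted p = 0.14) and passed as a rise of 0.52 with quantile normalization (adjusted p = 0.011). Within a mouse the log2 ratio of Mbl1 to Mbl2 was -2.60, -2.92 and -2.44 in BPD and -1.07, -1.36 and -1.15 in GFP livers. This ratio was lower by 1.46 in BPD livers, a value that centring cannot alter, and by 1.65 with quantile normalization (each exact permutation test, 2-sided, p = 0.1, the smallest that 3 against 3 allow).

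Of the serine proteases that travel with these lectins, Masp2 fell by both of its probe sets. Masp2, which cleaves C4 and C2, had signals of 684, 819.9 and 1125 in BPD and 1964, 1734 and 1783 in GFP livers. It fell by 1.38 ± 0.21 (limma adjusted p = 0.0022), and its other probe set fell by 1.62 ± 0.25. Both held under all 3 scalings and whichever mouse was left out.

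Masp1, which encodes several protease products by alternative splicing, gave a split picture. Its brightest probe set, 1419677_at, had signals of 279.9, 201 and 232 in BPD and 1726, 1703 and 2025 in GFP livers, and fell by 3.16 ± 0.20 or 8.94-fold (limma adjusted p = 9.4e-05). This was the 9th largest fall of the 8151 genes. The next, 1438602_s_at, had 957, 601 and 484 in BPD and 496, 698 and 644 in GFP livers, with full overlap. Its difference was -0.20 ± 0.25, and those of 1425985_s_at and 1438603_x_at were -0.22 ± 0.27 and 0.16 ± 0.21 (adjusted p between 0.57 and 0.58 for these 3). The fifth probe set, 1455346_at, was under the filter, with mean signals of 45.1 and 44.6. Within a mouse, the log2 ratio of 1419677_at to the mean of the other 3 above the filter was -0.93, -0.74 and -0.62 in BPD and 2.43, 2.21 and 2.31 in GFP livers, lower by 3.08 (exact permutation test, 2-sided, p = 0.1, the smallest possible). The files do not pair these probe sets with single transcripts, so which product each one measures was not analysed here.

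**Figure D4:**
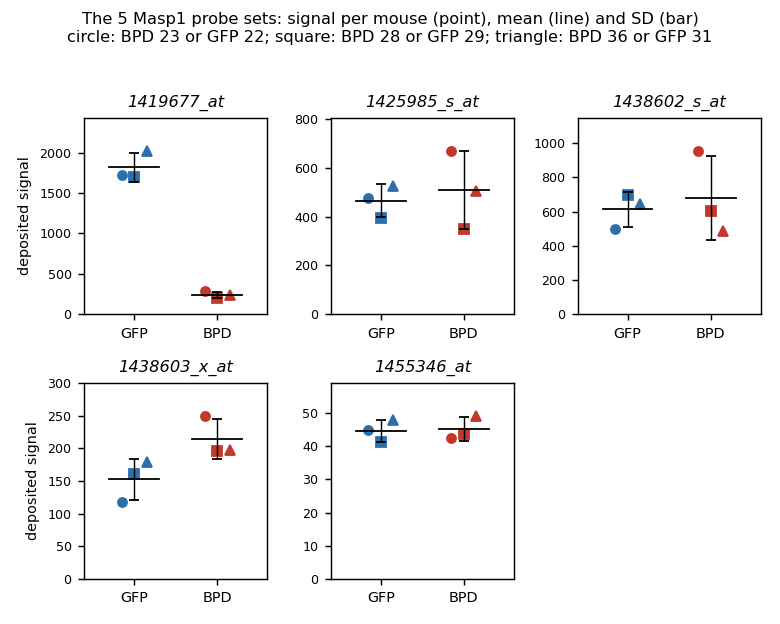
Deposited signal of the 5 Masp1 probe sets in each liver, GFP in blue and BPD in red, with the mean and SD of 3 mice. 1419677_at is 1703 or more in GFP and 279.9 or less in BPD livers, and the groups overlap on the signal axis in the others except 1438603_x_at, where BPD livers lie slightly higher.

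C2 and factor B, neighbouring genes, supply the catalytic subunits of the classical and lectin and of the alternative C3 convertase. C2 had signals of 758, 718 and 1254 in BPD and 1662, 1522 and 1130.4 in GFP livers. BPD liver 36 exceeded GFP liver 31 as deposited, though not after centring. The fall of 0.98 ± 0.26 (limma adjusted p = 0.021) did not pass as deposited (-0.68, adjusted p = 0.069) or with quantile normalization (-0.72, adjusted p = 0.066), nor after BPD mice 23 or 28 or GFP mouse 22 were left out. Factor B (Cfb) had 6162, 5466 and 6339.8 in BPD and 7436, 7296 and 6212 in GFP livers, a difference of -0.52 ± 0.16 (limma adjusted p = 0.036). It was -0.22 as deposited and 0.02 with quantile normalization, neither passing, and of the 6 fits without 1 mouse only that without BPD mouse 36 kept the call.

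Genes of the membrane attack complex fell, C8b most. C8 is made of an alpha, a beta and a gamma chain. C8b, the beta chain, had signals of 443, 238 and 979 in BPD livers and 4415, 4059 and 3351 in GFP livers. The BPD mean was 553 ± 382 and the GFP mean 3942 ± 542 (SD, n = 3 each), a fall of 3.31 ± 0.43 on the log2 scale or 9.93-fold (limma adjusted p = 0.0011). BPD liver 36 kept the most and BPD liver 28 the least. The fall ranked 8th among all genes, and the log2 difference was between -3.85 and -2.79 with 1 mouse left out.

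The alpha chain, C8a, had signals of 1819, 1299 and 1790.1 in BPD and 4205, 4702 and 4052 in GFP livers and fell by 1.71 ± 0.19 (limma adjusted p = 7.0e-04). For the gamma chain, C8g, the signals were 5560.0, 5211 and 6397 in BPD and 10795, 10286 and 11409.5 in GFP livers (fall of 1.22 ± 0.16, limma adjusted p = 0.001). The groups were far apart for both. Within a mouse, the log2 ratio of C8b to C8a was -2.0, -2.37 and -0.86 in BPD and 0.07, -0.21 and -0.27 in GFP livers, lower by 1.61 (exact permutation test, 2-sided, p = 0.1, the smallest possible). The genes of the alpha and beta chain lie next to each other, and that of the gamma chain is on chromosome 2.

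The rest of the terminal components fell by less. C9, which polymerises into the pore, had signals of 8291, 6963 and 8858 in BPD and 15508, 13837 and 11830.0 in GFP livers, and fell by 1.07 ± 0.18 (limma adjusted p = 0.0029). C6 had 2705, 2342 and 2299 in BPD and 4084, 3743 and 3221 in GFP livers, a fall of 0.88 ± 0.17 (limma adjusted p = 0.006). Both were called under all 3 scalings, with falls of 0.46 and 0.43 under quantile normalization. Hc, the mouse gene for C5, had 1840.2, 1913 and 2238 in BPD and 3681, 3385 and 2410.0 in GFP livers and fell by 0.94 ± 0.20 (limma adjusted p = 0.0086), but missed the threshold with quantile normalization (-0.53, adjusted p = 0.054). For all 6 terminal genes every BPD liver lay below every GFP liver, which after centring also held for 36.4% of all genes. Leaving out any 1 mouse ended none of the calls of these 6.

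**Figure D5:**
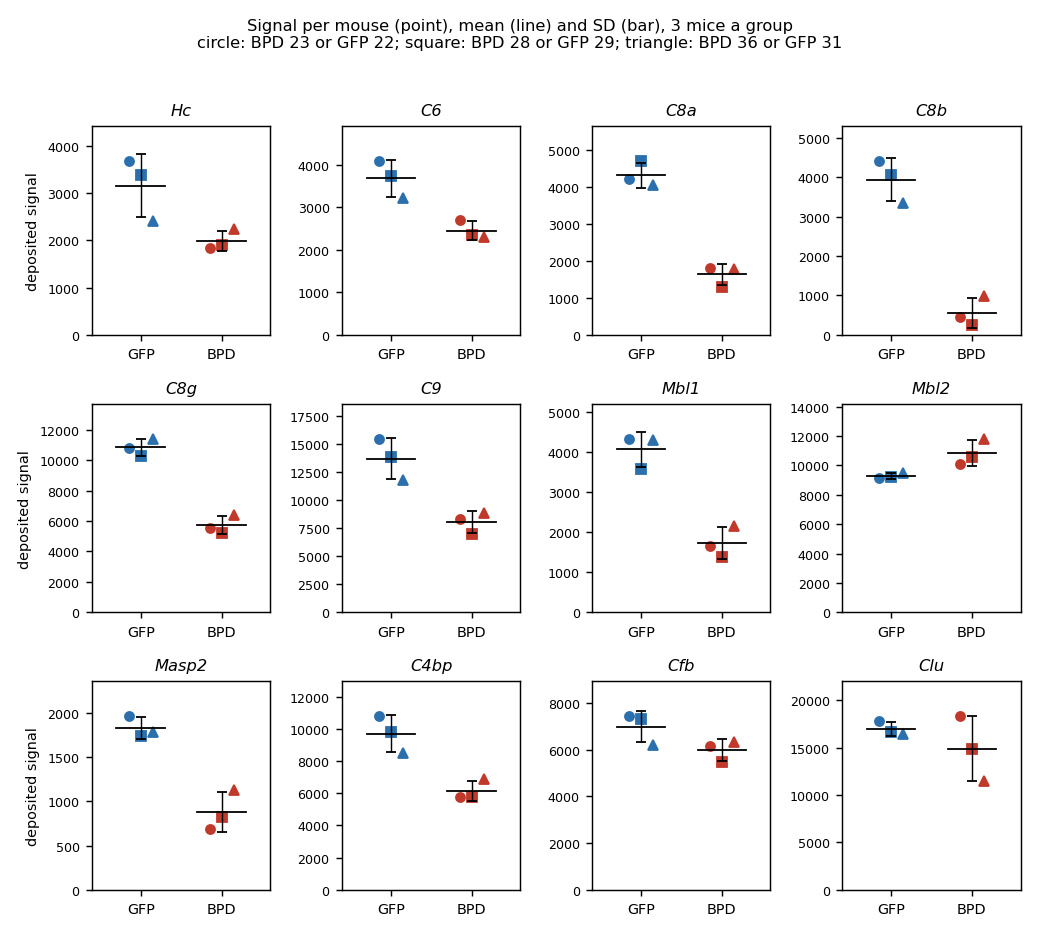
Deposited signal of 12 hepatocyte-made complement genes in each liver, GFP in blue and BPD in red, with the mean and SD of 3 mice as line and bar. The groups are separated for the 6 terminal genes, Mbl1, Masp2 and C4bp, Mbl2 is slightly higher in BPD livers on this scale, and Cfb and Clu overlap.

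Of the regulators in plasma, C4bp, Serping1 and Cfi fell after centring. C4bp, which dissolves the classical convertase, had signals of 5741, 5786 and 6860.3 in BPD and 10794, 9819 and 8494 in GFP livers, without overlap. It fell by 0.96 ± 0.16 (limma adjusted p = 0.0032), under all 3 scalings. The C1 inhibitor, Serping1, had 11281, 9905 and 11154 in BPD and 15033, 14522 and 11442 in GFP livers, with GFP liver 31 close to the BPD livers. Its difference of -0.64 ± 0.16 (limma adjusted p = 0.017) was -0.33 as deposited and 0.01 with quantile normalization, neither passing, and it was lost without BPD mouse 28 or GFP mouse 22. Factor I (Cfi), the protease that inactivates C3b and C4b, had signals of 10620.5, 9532 and 9856 in BPD and 12396, 11819.9 and 10191 in GFP livers. The difference of -0.49 ± 0.15 (limma adjusted p = 0.033) was -0.19 as deposited and turned to 0.13 with quantile normalization without passing, and only the fit without BPD mouse 23 kept the call among those without 1 mouse.

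Vitronectin (Vtn) and clusterin (Clu) keep forming pores from entering membranes. Vtn had signals of 13891, 13005 and 12093 in BPD and 15677, 17272 and 17069 in GFP livers, a fall of 0.66 ± 0.12 (limma adjusted p = 0.0048) that was not seen with quantile normalization (-0.00066, adjusted p = 0.996). Its second probe set fell by 0.92 ± 0.13, but did not pass with quantile normalization either (-0.28, adjusted p = 0.059). The 4 probe sets of Clu gave differences of -0.39 to -0.51, none of them passing. The brightest had 18346, 14829.6 and 11505 in BPD and 17785, 16620.0 and 16501 in GFP livers, so that BPD liver 23 was the highest of all and BPD liver 36 the lowest. Without BPD mouse 23 its fall was 0.71 and passed.

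On cell surfaces, CD59 stops C9 from joining the complex, CD55 breaks up convertases and CD46 helps factor I. Cd59a had signals of 945, 1008 and 1211 in BPD and 1427, 1662 and 1817 in GFP livers, and fell by 0.93 ± 0.17 (limma adjusted p = 0.005), as did its other probe set (0.95 ± 0.20). Both of the other genes were under the filter. Cd46 had 98.4, 89.9 and 105 in BPD and 93.2, 101 and 98.7 in GFP livers, with means of 97.8 and 97.8. The brighter Cd55 probe set had 74.0, 169 and 80.8 in BPD and 71.5, 84.5 and 60.1 in GFP livers, where BPD liver 28 stood above the rest. C1qbp had 3245, 3647 and 3893 in BPD and 5573, 5265 and 4992 in GFP livers and fell by 0.86 ± 0.15 (limma adjusted p = 0.0038), though not with quantile normalization (-0.35, adjusted p = 0.059). Its other probe set fell by 0.73 ± 0.16 (limma adjusted p = 0.011). That probe set passed neither as deposited nor with quantile normalization (-0.43, limma adjusted p = 0.061 in each).

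Markers of hepatocytes fell beside the hepatocyte-made complement genes. Of 14 measured markers 13 fell after centring (92.9%, beside 22.1% of all genes). As deposited 7 fell (11.1% of all genes), and with quantile normalization 3 (13.0%). The summed signal of the 14 was 156413 to 181016 in BPD and 228049 to 239599 in GFP livers. Relative to all genes their median was -0.56 centred, -0.56 as deposited and -0.10 with quantile normalization. Under all 3 scalings 3 of the 14 fell, beside 9.25% of all genes. For the 17 complement genes these medians were -0.74, -0.74 and -0.40, and 9 of the 17 fell under all 3. After centring, BPD mouse 28 was the lowest BPD mouse in 15 of these 17 genes, and GFP mouse 22 the highest GFP mouse in 14. This order depends partly on centring, which took most from BPD mouse 28 (log2 offset 7.74) and least from GFP mouse 22 (7.24). As deposited, BPD mouse 28 was not the lowest BPD mouse for Hc, C6, C4bp, Masp2, Mbl2, Clu and Vtn. Nor was GFP mouse 22 the highest GFP mouse for C8a, C8g, Masp1, Mbl2 and Vtn. The difference between both lists was not tested, nor was the part of the hepatocyte markers in the fall of the complement genes.

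Further genes of complement showed both directions. Of 34 listed, 15 had a probe set above the filter, 14 were not analysed here and 5 were too dim. As deposited 6 of the 15 fell and 3 rose (11.1% and 17.2% of all genes). With quantile normalization 5 fell and 4 rose (13.0% and 12.7%). After centring 9 fell (60%, beside 22.1% of all genes) and 3 rose (20%, beside 8.75%). One of the 9, Susd4, a membrane regulator of complement, had signals of 48.0, 54.2 and 30.9 in BPD and 239, 197 and 476 in GFP livers. Its BPD mean of 44.3 was under the filter level, so that it was tested only through its GFP livers, and its signals are given as a description. The pentraxins Crp and Apcs, which can recruit C1q, fell by 1.68 ± 0.25 and 1.43 ± 0.16. The chains of carboxypeptidase N, which trims C3a and C5a, fell as well, Cpn1 by 0.81 ± 0.19 and Cpn2 by 1.61 ± 0.21, but Cpn1 did not pass with quantile normalization (-0.31, adjusted p = 0.12). Cfhr2, related to factor H, fell by 1.20 ± 0.18.

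Falls of C1ra (-0.56 ± 0.15), a protease of the C1 complex, of Colec12 (-0.71 ± 0.22) and of the chaperone Calr (-0.43 ± 0.13) were called after centring but not in either other scaling. The other Calr probe sets above the filter (-0.42 and -0.39) did not pass after centring (limma adjusted p = 0.062 and 0.060). C1s1, the partner protease of C1ra, had 7385, 7267 and 7578 in BPD and 5976, 7381 and 4762 in GFP livers, a difference of 0.02 ± 0.16 that passed as a rise with quantile normalization (0.56). Of the integrin chains of the complement receptors of phagocytes, Itgb2 rose by 2.08 ± 0.39 and Itgax by 1.17 ± 0.31, while Itgam was under the filter (mean signals of 63.3 in BPD and 31.5 in GFP livers). Cd93, once described as a C1q receptor, rose by 1.29 ± 0.33. Itgb2 had signals of 1371, 1563 and 899.8 in BPD and 215, 463 and 113 in GFP livers, with no overlap, and kept its call whichever mouse was left out. The call of Itgax was lost without BPD mouse 23 or 28 and without GFP mouse 22 or 31 (adjusted p up to 0.099), and that of Cd93 without BPD mouse 23 (0.059). Vsig4, the complement receptor of resident macrophages, had 1783, 1402 and 259 in BPD and 352, 713 and 497 in GFP livers and did not pass (0.48 ± 0.58), nor did the membrane regulator Cr1l (-0.15 ± 0.18).

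Of 15 measured genes for transcription factors and cytokine receptors that act on complement genes, 6 fell (40%, beside 22.1% of all genes) and 1 rose (6.67%, beside 8.75%) after centring. In each of the other scalings 3 fell and 3 rose (20% each). Of all genes 11.1% fell and 17.2% rose as deposited, and 13.0% fell and 12.7% rose with quantile normalization. Spi1, which encodes PU.1, rose, with signals of 545, 636 and 370.1 in BPD and 170.0, 215 and 121 in GFP livers (1.22 ± 0.23, limma adjusted p = 0.0049). The interleukin-6 receptor chain Il6ra had 231, 283 and 203 in BPD and 449.9, 444 and 937 in GFP livers and fell by 1.52 ± 0.28 (limma adjusted p = 0.0046). The interleukin-1 receptor gene Il1r1 fell by 1.0 ± 0.22, and Nr1h4, which encodes the bile acid receptor FXR, by 0.91 ± 0.17. These 3 falls and the rise of Spi1 were called under all 3 scalings. The other falls, of Hnf4a, Foxa2 and Cebpa, named here after their values were seen, did not pass in either other scaling. For Hnf4a the groups overlapped, and its 3 other probe sets above the filter did not pass (-0.57, -0.38 and -0.16, adjusted p = 0.064, 0.21 and 0.67).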

How the data were processed

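RNA from 6 livers (3 BPD, 3 GFP mice, a separate mouse per array) was measured on one-colour arrays. The deposited intensities are linear signals made by the authors with MAS5, per the submitters' processing notes; neither its version nor its target value is given in the sources used here. The table held 22690 probe sets, of which 64 controls were left out. Of the other 22626, 20380 carry 1 gene symbol in the platform annotation, 691 several and 1555 none, and only those with 1 were named. A constant of 16.3 (10% of the median of all values) was added, log2 taken and each array centred on its median. The 13575 probe sets above the 40th percentile of mean log2 value were fitted with limma 3.58.1 in R 4.3.3 (lmFit, eBayes with an intensity trend), with Benjamini-Hochberg adjustment over all of them and a threshold of 0.05, 2-sided. The fit was tested on simulated data. SEs are the moderated ones. The number of arrays, 3 a group, limits the precision.

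The members and lists were chosen with earlier results of these data known. The text names all members, every other complement gene that passed and the 3 brightest that did not, and at most 4 genes of each regulator or marker list, with the exceptions stated. Alternatives were the deposited scaling, quantile normalization, no filter, constants of 1% and 50% of the median, other ways to choose probe sets, robust eBayes, a Gapdh 3' to 5' covariate, array weights and leaving out each mouse. Promoter windows come from RefSeq (GRCm38.p6). Some promoter strings and regulators that were looked at are not reported here.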

Additional observations from a re-analysis of the deposited data

How the results depend on the processing

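Over the fits of the 26 complement genes under the alternatives, 352 kept their direction and side of the threshold and 6 turned direction. With the direction kept, 50 lost a call and 8 gained one. The turns were those of Cfb (0.016), Cfi (0.13), Serping1 (0.011), Clu (0.12) and Mbl2 (0.52) with quantile normalization and of Mbl2 (0.22) in the deposited scaling. With quantile normalization Cfb, Cfi and Serping1 also lost their calls and Mbl2 gained one. The cause was not tested, beyond that both settings remove or replace the centring. The 4 complement genes called higher, all myeloid-made, became 2 with the Gapdh covariate, 1 without the filter and 2 with robust eBayes. With quantile normalization the complement genes called lower went from 17 to 10, the hepatocyte-made ones lower from 15 to 9 and higher from 0 to 1, and the other complement genes lower from 9 to 5. Regulators called higher went from 1 to 2 (Gapdh covariate, array weights, constant of 50%, mean of probe sets) or 3 (deposited scaling, quantile normalization), and lower from 6 to 3 in the latter pair. Leaving out 1 mouse gave 0 to 6 complement genes higher and 13 to 16 lower, 0 to 6 myeloid-made higher, 11 to 14 hepatocyte-made lower, 1 to 4 other complement genes higher and 6 to 9 lower, and 1 to 2 regulators higher and 3 to 6 lower. No count of complement genes higher was above 1 without BPD mouse 23 (0), BPD mouse 28 (0), GFP mouse 22 (1) or GFP mouse 31 (0). No paired analysis was possible because the mouse numbers are not shared between the groups. Detection calls were not used here, so which dim signals lie above background was not analysed.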
